A study of Mus musculus with 20 samples.

Results

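Cytosine-5 methylation of RNA (5mC) is written by the NSUN family, Nop2 (also called Nsun1) and Nsun2 to Nsun6, and by Trdmt1 (Dnmt2), and it is bound by proteins such as Ybx1. These enzymes place the mark on tRNA, rRNA and some mRNA, and Tet proteins can oxidise it to 5-hydroxymethylcytosine (5hmC). The 8 genes described here, the 7 enzymes and the reader Ybx1, were taken by name from the 23284 genes of each deposited file, and all 8 passed the filter on low counts together with 13710 genes in all. The question was whether the mRNAs for the writers and a reader of 5mC were themselves recovered with Flag-tagged Tet1 or Tet2, and whether recovery with Tet2 needed its RNA-binding domain.

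The 20 libraries are RNA immunoprecipitation sequencing (RIP-Seq) of mouse embryonic stem cells (ESCs) made from wild-type cells by a knock-in at an endogenous Tet gene and grown in serum with leukemia inhibitory factor. The Tet1 line (Tet1-KI, 2 pairs of IP and input) and the Tet2 line (4 pairs) carry a C-terminal Flag, HA and Twin-Strep tag, and the Tet2ΔRBD line (4 pairs) carries the same tag on Tet2 without its RNA-binding domain. The tagged lines were derived from picked clones, the anti-Flag IP was made from cytoplasmic extract, and the labels give the sequenced molecule as polyA RNA. A gene-level count shows neither the tag nor the deletion, and Tet2 itself lay between 2.49 and 9.21 TPM (length-scaled transcript abundance) over the 10 inputs. IgG control precipitations are not analysed here, so each ratio is relative to input RNA and not to a mock IP. The methods give the input as total RNA from ESCs. A ratio can therefore also reflect cytoplasmic against total RNA, and that part was not tested.

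Total counts ranged from 21078995 to 37576638 per library. The 9 ESC marker transcripts, such as Pou5f1 and Nanog, summed to between 14480 and 18820 TPM in the inputs, the 5 fibroblast markers to between 10.69 and 63.19 TPM and the 8 differentiation markers to between 18.63 and 101.3 TPM. The highest mean of each list was that of Dppa5a (11000 TPM), Thy1 (23.04 TPM) and Gata4 (18.2 TPM), so 1 gene can carry much of a sum. The numbering of the deposited files places replicate 1 of Tet2 and Tet2ΔRBD in library set 1, replicate 2 of both in set 2, and replicates 3 and 4 of both with both Tet1 pairs in set 3. Replicates 3 and 4 of Tet2 and of Tet2ΔRBD were close (Pearson r across genes at least 0.99), as were both Tet1 replicates (0.994 between inputs and 0.996 between IPs), whereas the other library pairs within Tet2 and within Tet2ΔRBD had r from 0.89 to 0.96. The paper states at least biological duplicates for its RIP-Seq, but the labels do not say which replicates came from separate cultures. The p-values therefore measure the spread between these libraries, which may be technical. Replicate 2 of Tet2 and of Tet2ΔRBD stood apart for several of the 8 genes, and fitted ratios are therefore also given without it.

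NSUN enzymes transfer the methyl group through a cysteine that bonds to the target cytosine, and Trdmt1 does so through a cysteine in a motif shared with DNA methyltransferases. The 27 coding bases around that codon are printed below for the 7 enzymes, to show which transcripts are counted and the site that makes them 5mC writers. They were read from the mm9 genome with GENCODE annotation, run 5′ to 3′ on the coding strand, and have the cysteine codon in capitals.
Nop2: gtctactgcaccTGTtccattacggtg
Nsun2: gtgtattccacgTGTtccttgaacccc
Nsun3: gtgtactctacaTGCacgctttccaag
Nsun4: gtctattcaactTGCtcactgtctcac
Nsun5: gtctactccacgTGTtccctttgccaa
Nsun6: gtctacagcacaTGCacaataaccttg
Trdmt1: atgagccctccaTGCcagccattcaca
The codon is number 502 of 794 in Nop2 (chr6:125091153-125091294, plus strand, a window joined across an intron after exon 14) and 321 of 757 in Nsun2 (chr13:69762099-69762125, plus strand, exon 9). It is 265 of 348 in Nsun3 (chr16:62735181-62735207, minus strand, exon 6) and 307 of 381 in Nsun4 (chr4:115706853-115706879, minus strand, exon 6). In Nsun5 it is 359 of 465 (chr5:135851273-135851299, plus strand, exon 8), in Nsun6 it is 373 of 476 (chr2:14919860-14919886, minus strand, exon 10), and in Trdmt1 it is 79 of 415 (chr2:13447247-13447273, minus strand, exon 3). The 6 NSUN windows share the layout around the capitals, and the Trdmt1 window does not. Ybx1 (chr4:118950586-118967209, minus strand, 8 exons) is no methyltransferase and has no such site.

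In input RNA, TPM placed the 8 genes over a wide range. Ybx1 led with a mean of 887 ± 324 TPM (SD, n = 10 inputs), at the 98.9th percentile of the genes tested. Nsun2 (98.5 ± 37.2 TPM) and Nop2 (90.3 ± 43.3 TPM) followed, then Nsun5 (28.7 ± 9.04 TPM) and Nsun4 (8.29 ± 2.48 TPM). The lowest were Trdmt1 (3.85 ± 1.34 TPM), Nsun6 (2.68 ± 0.824 TPM) and Nsun3 (1.24 ± 0.370 TPM, the 17.3rd percentile). Of the 7 neighbouring pairs in that order, Nsun2 and Nop2 did not differ beyond their spread (exact sign-flip permutation test on log2(TPM + 1) over 10 inputs, two-sided, p = 0.725, adjusted p = 0.725, Nsun2 higher in 8 of 10 inputs). The other 6 neighbours differed, with Trdmt1 over Nsun6 the least clear (exact sign-flip permutation p = 0.0117, adjusted p = 0.0137, higher in 8 of 10 inputs). The order came from the same 10 inputs, and inputs of 1 line share cells and library sets. These p-values can therefore be too small, and they compare libraries only.

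**Figure D1:**
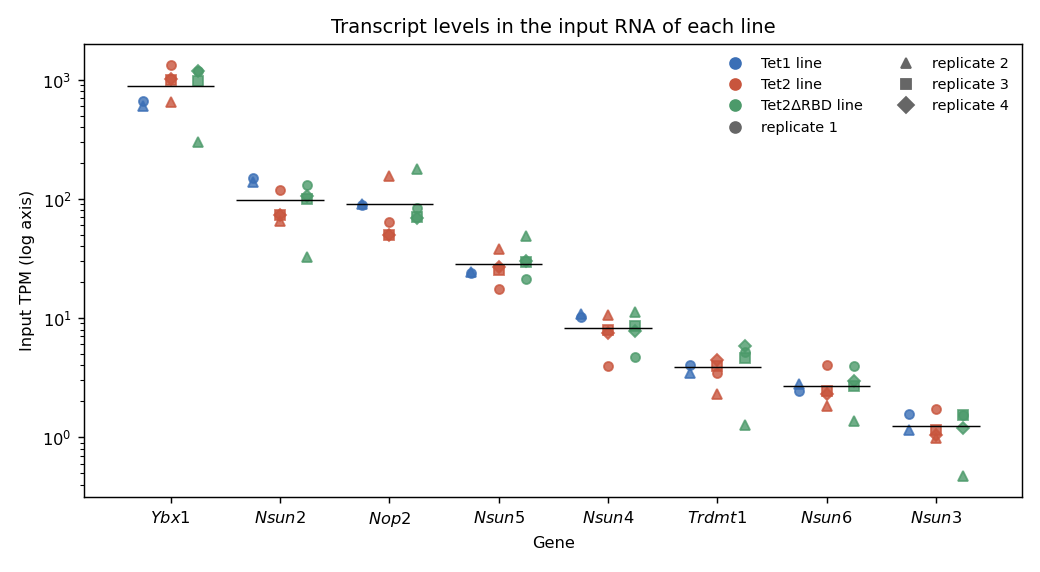
Input TPM of the 8 genes in each of the 10 input libraries, on a log axis, with genes ordered by mean. Colours mark the line and shapes the replicate number, and the black bars are means over 10 inputs, from 887 TPM for Ybx1 to 1.24 TPM for Nsun3, with replicate 2 of Tet2ΔRBD lowest for Ybx1, Nsun2, Trdmt1, Nsun6 and Nsun3.

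Recovery was described by a pair of rules. One asked whether TPM + 1, the authors' scale, was above input in every replicate of a line. The other was edgeR's quasi-likelihood fit of expected counts in which every IP was matched to its own input, called at a Benjamini-Hochberg adjusted p under 0.05 over all genes. This fit took 1 spread per gene from all 20 libraries. The SE and p of a line, such as Tet1, therefore also carry the spread of the other lines. By the first rule 6 of 8 members were above input in Tet1, 5 in Tet2 and 3 in Tet2ΔRBD, where 50.9%, 46.5% and 31.8% of all genes tested were. The number below input in every replicate was 2 in Tet1 (Nsun4 and Ybx1) and 0 in the others, against 30.1%, 11.9% and 8.56% of all genes. By the second rule only Ybx1 in Tet2 was called, lower in the IP. Among all genes edgeR called 2.72% higher and 3.18% lower in Tet1, 14.6% and 18.5% in Tet2, and 7.4% and 12.1% in Tet2ΔRBD. The median fitted log2(IP/input) of the members was 0.04, -0.01 and -0.08 in Tet1, Tet2 and Tet2ΔRBD, and that of all genes -0.04, 0.00 and -0.01. At an unadjusted p under 0.05, edgeR gave 0 members in Tet1, 2 in Tet2 and 4 in Tet2ΔRBD, where 23.5%, 45.0% and 35.4% of all genes were. DESeq2 called 0 members in Tet1 and 2 (Nsun2 and Ybx1) in each of Tet2 and Tet2ΔRBD, where it called 11.5%, 35.9% and 23.9% of all genes. limma on log2(TPM + 1) called 0 in Tet1, 3 in Tet2 (Nop2, Nsun2 and Nsun6) and 2 in Tet2ΔRBD (Nsun2 and Nsun6), where it called 4.64%, 43.1% and 28.1% of all genes.

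Nop2, which methylates large-subunit rRNA in the nucleolus, was above its input in all 10 pairs, but by a small margin. Its TPM went from 89.25 to 95.5 and from 91.4 to 101.74 in the Tet1 pairs (input, then IP). In the Tet2 pairs it went from 64.28 to 75.39, 154.25 to 322.71, 50 to 60.35 and 49.77 to 58.89, replicates 1 to 4. In the Tet2ΔRBD pairs it went from 83.51 to 96.17, 179.51 to 184.73, 71.02 to 96.13 and 69.68 to 95.28. Replicate 2 of Tet2 and of Tet2ΔRBD had by far the highest level in both fractions, and only replicate 2 of Tet2 had an IP over 2 times its input. The pair medians of log2(IP/input) over 11784 expressed genes were themselves above 0, from 0.01 to 0.38. After subtracting them Nop2 was above 0 in 8 of 10 pairs. The edgeR log2 ratios, scaled between libraries, were -0.02 ± 0.17 in Tet1, 0.13 ± 0.12 in Tet2 and 0.01 ± 0.12 in Tet2ΔRBD (SE, n = 2, 4 and 4 pairs; edgeR adjusted p = 0.960, 0.423 and 0.977), and none passed. Without both replicates 2 they were -0.03, -0.01 and 0.05, and none passed.

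Nsun5, which methylates another site of the large-subunit rRNA, had ratios of similar size. In Tet1 its TPM went from 23.83 to 28.85 and from 24.44 to 28.42. In Tet2 it went from 17.65 to 21.72, 37.94 to 38.63, 25.52 to 33.06 and 26.96 to 35.69. In Tet2ΔRBD it went from 21.42 to 21.67, 49.13 to 40.31, 29.37 to 37.3 and 30.29 to 40.26. The IP was above the input in 9 of 10 pairs, the exception being replicate 2 of Tet2ΔRBD. Fitted log2 ratios were 0.10 ± 0.19 in Tet1, -0.04 ± 0.13 in Tet2 and -0.15 ± 0.13 in Tet2ΔRBD (SE; edgeR adjusted p = 0.807, 0.829 and 0.432), and on the unscaled log2(TPM + 1) scale the latter values were above 0 (0.27 and 0.12), so no direction is given for this gene. Without both replicates 2 the fitted values were 0.09, 0.10 and -0.05, and none passed.

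Nsun2, the writer for many tRNAs and for 5mC in mRNA, had the highest ratio of the members, and its IP was above input in all 10 pairs. In the Tet1 pairs its TPM went from 148.3 to 224.85 and from 139.58 to 225.2. In the Tet2 pairs it went from 117.57 to 214.49, 65.21 to 276.7, 72.64 to 121.62 and 73.18 to 115.13. In the Tet2ΔRBD pairs it went from 131.86 to 212.0, 32.53 to 152.72, 98.83 to 171.9 and 105.34 to 170.07. The IP and input values of Tet1 and of Tet2ΔRBD did not overlap, and in Tet2 the lowest IP value (115.13) lay just under the highest input value (117.57). How many of all genes also lacked overlap was not counted, so this does not set Nsun2 apart. The TPM + 1 fold over input was 1.51 to 1.82 in 8 pairs and 4.19 and 4.58 in replicate 2 of Tet2 and of Tet2ΔRBD.

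The mean log2(IP/input) of Nsun2 from TPM + 1 was 0.64 ± 0.06 in Tet1 (SD, n = 2), 1.08 ± 0.67 in Tet2 (SD, n = 4) and 1.09 ± 0.74 in Tet2ΔRBD (SD, n = 4). Nsun2 was the only member above the pair median in all 10 pairs, where 11.8% of all genes tested were, and 1 of 3 members (with Nop2 and Nsun6) above input in all 10, where 22.4% of all genes were. The fitted log2 ratio was 0.50 ± 0.40 in Tet1, 0.76 ± 0.29 in Tet2 and 0.81 ± 0.29 in Tet2ΔRBD (SE), at the 85.1st, 89.8th and 92.7th percentile of all genes. None passed the threshold (edgeR adjusted p = 0.503, 0.0614 and 0.0748). DESeq2 called it in Tet2 and Tet2ΔRBD (DESeq2 adjusted p = 0.0196 and 0.0147), and so did limma on log2(TPM + 1) (limma adjusted p = 0.00949 and 0.0164). Of 19 alternatives it passed in 3 in Tet1, 8 in Tet2 and 6 in Tet2ΔRBD. With replicate 2 of both lines left out the ratios were smaller and their spread much smaller, 0.49, 0.50 and 0.41, and all 3 passed (edgeR adjusted p = 0.00779, 0.00120 and 0.00404), where 20.9%, 38.3% and 30.8% of all genes passed in Tet1, Tet2 and Tet2ΔRBD. Both Tet1 pairs stayed in that fit.

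Nsun6, which methylates the 3′ end of specific tRNAs and a set of mRNAs, had smaller ratios of the same sign. In Tet1 its TPM went from 2.43 to 3.82 and from 2.79 to 3.77. In Tet2 it went from 4.02 to 4.84, 1.84 to 3.63, 2.45 to 2.94 and 2.29 to 3.06, and in Tet2ΔRBD from 3.93 to 6.08, 1.38 to 3.12, 2.7 to 3.46 and 2.95 to 3.64. All 10 pairs were above input and 8 above the pair median. The fitted log2 ratio was 0.38 ± 0.28, 0.20 ± 0.20 and 0.36 ± 0.20 in Tet1, Tet2 and Tet2ΔRBD (SE; edgeR adjusted p = 0.460, 0.444 and 0.214), and no line passed. With both replicates 2 left out it was 0.37, 0.08 and 0.13, and again no line passed. Between 92 and 297 expected counts lay behind each value.

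Trdmt1, which methylates tRNA anticodon loops, showed no single direction. Its TPM went from 4.06 to 4.85 and from 3.48 to 4.21 in Tet1. In Tet2 it went from 3.43 to 3.27, 2.32 to 3.84, 3.95 to 4.31 and 4.42 to 4.08, and in Tet2ΔRBD from 5.15 to 4.5, 1.27 to 3.22, 4.59 to 5.24 and 5.88 to 5.22. The pair of replicate 2 had the lowest input and the largest ratio in both Tet2 lines. Fitted log2 ratios were 0.12 ± 0.36, -0.15 ± 0.25 and -0.01 ± 0.26 in Tet1, Tet2 and Tet2ΔRBD (SE; edgeR adjusted p = 0.886, 0.668 and 0.978). Leaving out both replicates 2 gave 0.11, -0.28 and -0.37 (edgeR adjusted p = 0.658, 0.122 and 0.0557).

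Nsun3 and Nsun4 are nuclear-encoded enzymes that act on mitochondrial RNA. Nsun3, which starts the 5-formylcytosine of mitochondrial methionine tRNA, was the least abundant member, with 15 to 45 expected counts a library. Its TPM went from 1.57 to 1.64 and from 1.15 to 1.19 in Tet1. It went from 1.72 to 1.02, 0.98 to 1.42, 1.16 to 0.99 and 1.05 to 0.96 in Tet2, and from 1.55 to 1.02, 0.47 to 0.61, 1.53 to 0.84 and 1.2 to 0.97 in Tet2ΔRBD. The only Tet2 and Tet2ΔRBD pairs above input were those of replicate 2. Fitted log2 ratios were -0.09 ± 0.39, -0.47 ± 0.28 and -0.66 ± 0.29 in Tet1, Tet2 and Tet2ΔRBD (SE; edgeR adjusted p = 0.921, 0.210 and 0.126). Without both replicates 2 the Tet2ΔRBD ratio was -0.90 (edgeR adjusted p = 0.0243) and the Tet2 ratio -0.66 (edgeR adjusted p = 0.0603).

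Nsun4, which methylates mitochondrial small-subunit rRNA and works with Mterf4, was above input in 4 of 4 Tet2 pairs, in 2 of 4 Tet2ΔRBD pairs and in 0 of 2 Tet1 pairs. Its TPM went from 10.12 to 9.89 and from 10.78 to 9.31 in Tet1. In Tet2 it went from 3.96 to 6.91, 10.51 to 10.82, 7.91 to 8.94 and 7.53 to 9.57, and in Tet2ΔRBD from 4.7 to 4.61, 11.13 to 7.46, 8.5 to 9.25 and 7.81 to 8.66. Fitted log2 ratios were -0.27 ± 0.21, 0.02 ± 0.15 and -0.36 ± 0.15 in Tet1, Tet2 and Tet2ΔRBD (SE; edgeR adjusted p = 0.485, 0.926 and 0.109). Leaving out both replicates 2 gave -0.27, 0.18 and -0.23, and none passed. In unscaled TPM every Tet1 pair was below input and every Tet2 pair above it. After subtracting the pair medians, Nsun4 was above 0 in 2 of 10 pairs. Its Tet2 pairs then lay at 0.44, -0.34, -0.04 and 0.19, replicates 1 to 4. The test of the difference, Tet1 minus Tet2, gave -0.29 ± 0.26 (SE; edgeR adjusted p = 0.940).

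Ybx1, a cold-shock-domain protein that packages mRNA and binds 5mC, had the lowest ratio of the members. Its TPM went from 665 to 434 and from 598 to 434 in the Tet1 pairs. In the Tet2 pairs it went from 1339 to 638, 644 to 771, 987 to 469 and 1019 to 459, replicates 1 to 4. In the Tet2ΔRBD pairs it went from 1174 to 781, 299.75 to 486, 967 to 509 and 1180 to 493. Ybx1 was below input in 8 of 10 pairs, and both exceptions were replicate 2. After subtracting the pair medians, Ybx1 was above 0 in 1 of 10 pairs, replicate 2 of Tet2ΔRBD (0.68). Replicate 2 of Tet2 then lay at -0.12. In Tet2 replicate 2 the input was lower than in the other Tet2 pairs (644 TPM against 987 to 1339 TPM) and the IP higher (771 TPM against 459 to 638 TPM). In Tet2ΔRBD replicate 2 the input was lower (299.75 TPM against 967 to 1180 TPM) and the IP was the lowest of the line (486 TPM against 493 to 781 TPM). In the 8 other pairs the TPM + 1 fold over input was 0.418 to 0.726.

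**Figure D2:**
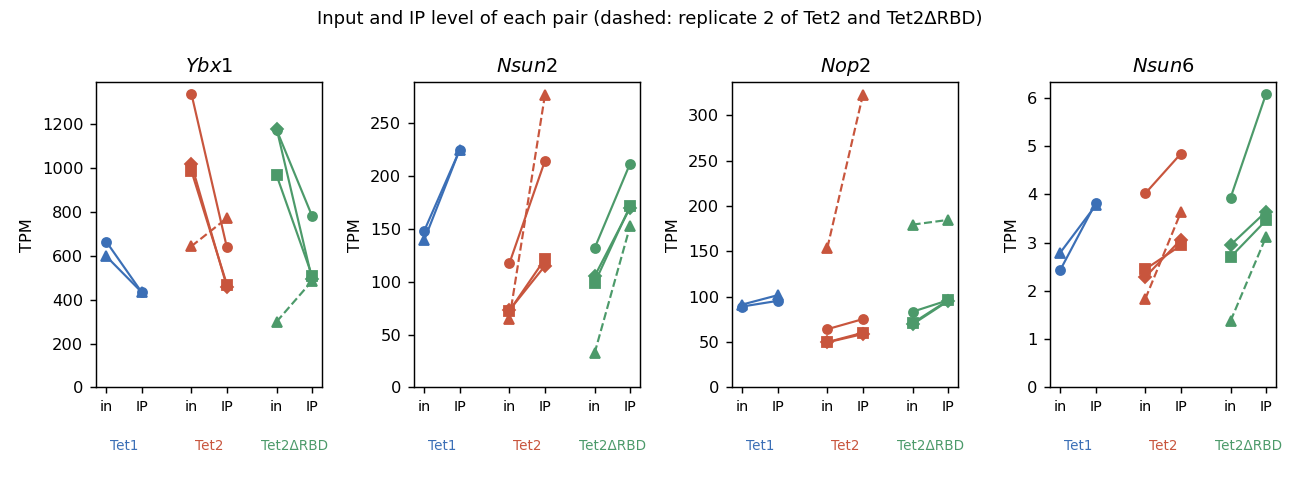
TPM of Ybx1, Nsun2, Nop2 and Nsun6 in the input (in) and IP library of each pair, joined by a line, with colour for the line, shape for the replicate number and dashes for replicate 2 of Tet2 and Tet2ΔRBD. Ybx1 was lower in the IP in all 8 solid pairs and higher in the 2 dashed ones, and Nsun2 was higher in all 10, from 32.53 to 152.72 TPM in the dashed Tet2ΔRBD pair.

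The fitted log2 ratio of Ybx1 was -1.08 ± 0.31 in Tet2 (SE, n = 4 pairs, 95% interval -1.76 to -0.40, edgeR adjusted p = 0.0217), a level in the IP of 0.473 times input, at the 2.61st percentile of all genes. It was -0.69 ± 0.43 in Tet1 (edgeR adjusted p = 0.376) and -0.82 ± 0.32 in Tet2ΔRBD (edgeR adjusted p = 0.0910). The Tet2 call was lost without replicate 1 (edgeR adjusted p = 0.107), replicate 3 (0.0659) or replicate 4 (0.0724), without the pair block (0.0706), and with replicates 3 and 4 merged (0.0636), and in limma on log2(TPM + 1) (limma adjusted p = 0.0564). Over its 19 alternatives the ratio lay between -1.35 and -0.76 and passed in 12. Without both replicates 2 it was -0.69, -1.35 and -1.24 in Tet1, Tet2 and Tet2ΔRBD and passed in each (edgeR adjusted p = 0.00775, 0.000123 and 0.000243). Expected counts of Ybx1, Nsun2 and Nsun5, deposited with decimals, were not whole in any of the 20 libraries, so reads shared with other transcripts were split by estimation and their levels carry that uncertainty.

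**Figure D3:**
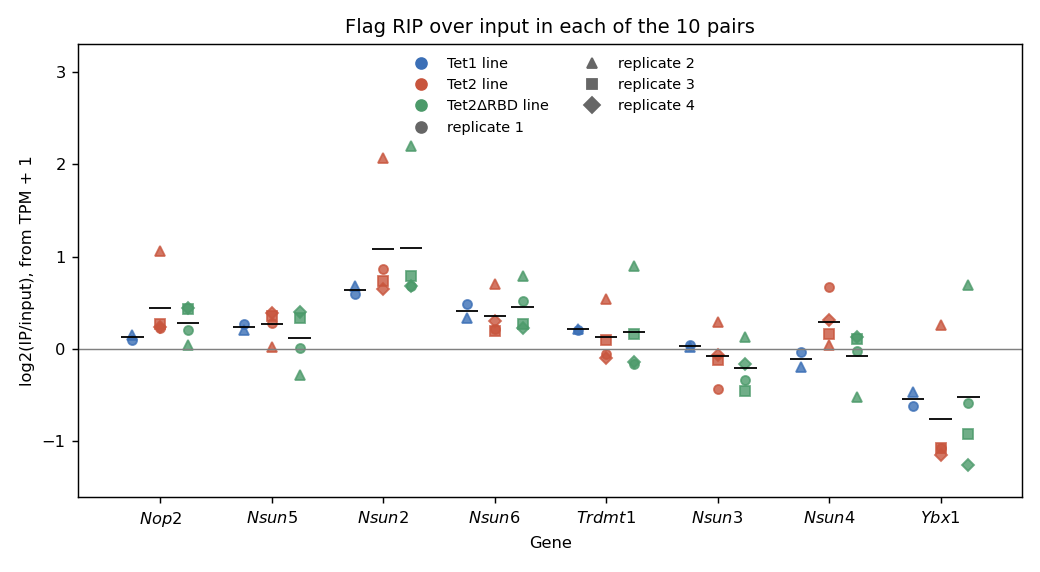
log2(IP/input) from TPM + 1 for the 8 genes in each of the 10 pairs, grouped by RNA target (rRNA, then tRNA and mRNA, mitochondrial RNA, and the reader). Colours mark the line, shapes the replicate number and short bars the mean of a line, and replicate 2 of the Tet2 lines (triangles) is, within each of the Tet2 and Tet2ΔRBD lines, highest for Nsun2, Nsun6, Trdmt1, Nsun3 and Ybx1 and lowest for Nsun5 and Nsun4.

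Within library set 3 alone, chosen after the values were seen, the 2 Tet1 pairs and replicates 3 and 4 of the other lines gave a narrower spread. Nsun2 was higher in the IP by 0.46, 0.49 and 0.47 on the log2 scale in Tet1, Tet2 and Tet2ΔRBD (edgeR adjusted p = 9.29e-05, 6.00e-05 and 8.07e-05), and Ybx1 was lower, at -0.72, -1.32 and -1.37 (edgeR adjusted p = 2.84e-05, 1.21e-06 and 1.10e-06). Nsun4 in Tet1 (-0.31, edgeR adjusted p = 0.0356) and Nop2 and Nsun3 in Tet2ΔRBD (0.17 and -0.86, edgeR adjusted p = 0.0405 and 0.0370) also passed. That made 3 of 8 members in Tet1, 2 in Tet2 and 4 in Tet2ΔRBD, where 46.8%, 49.9% and 49.1% of all genes passed, so passing was common in this set. Set 1, with 1 pair a line, gave 0.86 and 0.68 for Nsun2 and -1.07 and -0.59 for Ybx1 in Tet2 and Tet2ΔRBD from TPM + 1, in the same directions, and set 2 gave 2.07 and 2.20 for Nsun2 and 0.26 and 0.69 for Ybx1. After subtracting the pair medians, set 2 gave 1.69 and 2.18 for Nsun2 and -0.12 and 0.68 for Ybx1.

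**Figure D4:**
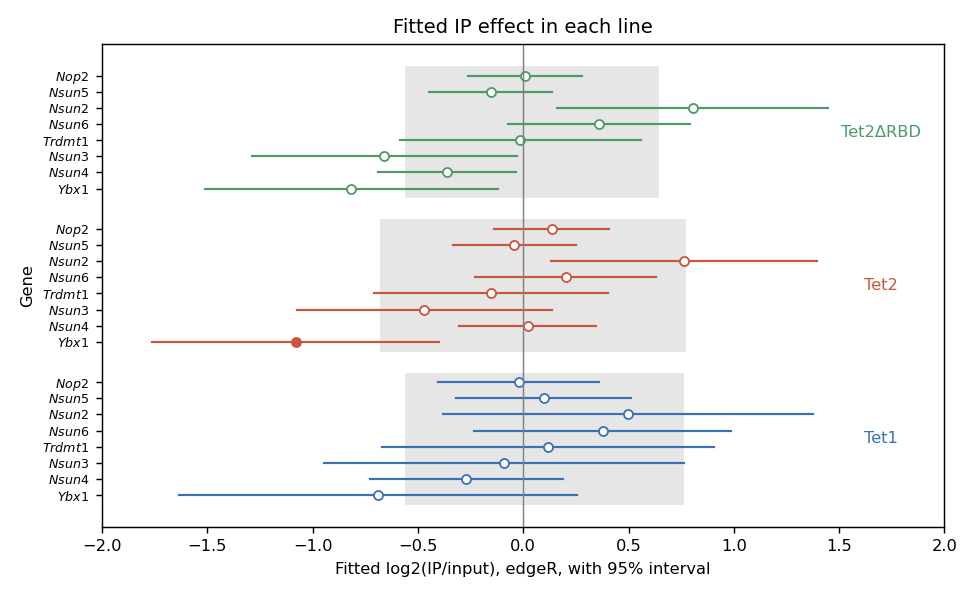
Fitted log2(IP/input) from edgeR for the 8 genes in each line, with the 95% interval as a bar. The filled point passed the adjusted threshold (Ybx1 in Tet2, -1.08), open points did not, and the grey band spans the 10th to 90th percentile of all 13710 genes in that line.

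To ask whether the RNA-binding domain of Tet2 mattered for these transcripts, the IP effect of Tet2 was set against that of Tet2ΔRBD. No member passed (0 of 8, edgeR lowest adjusted p = 1.00, 0 at an unadjusted p under 0.05, and 0 in DESeq2 and limma), where 0.0219% of all genes did. For Nsun2 the difference, Tet2 minus Tet2ΔRBD, was -0.04 (95% interval -0.94 to 0.86), and for Ybx1 -0.26 (-1.23 to 0.70). The most precise were Nop2, 0.13 (-0.26 to 0.51), and Nsun5, 0.11 (-0.30 to 0.53), and the largest was Nsun4, 0.38 (-0.08 to 0.84). The intervals leave room for a change of over 1.5-fold in either direction for Nsun2, Nsun3, Trdmt1 and Ybx1. In library set 3, where 2 pairs a line entered, the differences were 0.02 for Nsun2 and 0.05 for Ybx1 (edgeR adjusted p = 0.923 and 0.852).

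Tet1 was compared with each form of Tet2 in the same way, and 0 of 8 members passed in either comparison (edgeR lowest adjusted p = 0.940 and 1.00, 0 at an unadjusted p under 0.05 in both, and 0 in DESeq2 and limma), where 0.0% and 0.0% of all genes did. The difference for Ybx1 was 0.39 (95% interval -0.77 to 1.55) for Tet1 minus Tet2 and 0.13 (-1.04 to 1.30) for Tet1 minus Tet2ΔRBD. In library set 3 Ybx1 was the 1 member that passed, its depletion being smaller in Tet1 than in Tet2 by 0.60 (edgeR adjusted p = 0.0214, where 2.35% of all genes passed) and than in Tet2ΔRBD by 0.65 (edgeR adjusted p = 0.00522, where 21.0% passed). The IP values behind it were close, 434 TPM in both Tet1 IPs against 459 to 509 TPM in the others, while the inputs were 598 and 665 TPM against 967 to 1180 TPM. The Tet1 and Tet2 lines are separate clones, so line and tagged protein cannot be told apart.

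Between the inputs of the lines no member passed (0 of 8 in each of 3 comparisons, 0 at an unadjusted p under 0.05 in each, and 0 in DESeq2 and limma), where 0.0% of all genes passed for Tet2 against Tet2ΔRBD, 0.406% for Tet1 against Tet2 and 0.0376% for Tet1 against Tet2ΔRBD. With the replicate number as a block, Tet2 against Tet2ΔRBD also gave 0, the nearest being Nop2 at -0.39 (edgeR adjusted p = 0.153). Against Tet1, replicates 3 and 4 alone gave a different picture. Nsun2 was higher in Tet1 input by 0.87 and 0.45 than in Tet2 and Tet2ΔRBD input, and Nop2 by 0.74 and 0.32 (edgeR adjusted p = 3.56e-05, 0.00102, 8.25e-05 and 0.00614). Ybx1 was lower in Tet1, at -0.78 and -0.81 (edgeR adjusted p = 0.000342 and 0.000503). In all 5 members passed against Tet2 and 6 against Tet2ΔRBD, where 49.8% and 44.4% of all genes passed. In these bulk samples fewer cells expressing a gene and less RNA per cell cannot be told apart. The differentiation markers summed to 31.1 to 31.75 TPM in the Tet1 inputs, 18.63 to 19.92 TPM in Tet2 replicates 3 and 4 and 45.41 to 47.66 TPM in those of Tet2ΔRBD. The fibroblast markers summed to 13.98 and 16.14 TPM in the Tet1 inputs, 41.68 to 42.21 TPM in Tet2 replicates 3 and 4 and 37.41 to 40.68 TPM in those of Tet2ΔRBD. Such a sum can rest largely on 1 gene, and the part of either list in the result was not tested.

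Readers, partners and Tet genes form the nearest pathway list, of which 14 of 15 were tested. In Tet1, 2 were called higher and 2 lower, where 2.72% and 3.18% of all genes were. In Tet2 there were 3 higher and 6 lower (14.6% and 18.5% of all genes), and in Tet2ΔRBD 3 and 3 (7.4% and 12.1%). Pabpc1, the cytoplasmic poly(A)-binding protein, was the most recovered of those named, with fitted log2 ratios of 2.85 ± 0.43, 1.98 ± 0.30 and 2.06 ± 0.30 in Tet1, Tet2 and Tet2ΔRBD (SE; edgeR adjusted p = 0.0186, 0.00101 and 0.00185), higher in 10 of 10 pairs. Srsf2, a splicing factor of the SR family, was lower in all 10 pairs, at -0.71, -0.91 and -0.92 (edgeR adjusted p = 0.0241, 0.000213 and 0.000516), and so was Elavl1, which stabilises mRNA, at -0.63, -0.81 and -0.65 (edgeR adjusted p = 0.0340, 0.000403 and 0.00237). The Ybx1 paralog Ybx2 was lower in Tet2 (-0.42, edgeR adjusted p = 0.00727), as were the mRNA export factor Alyref2 (-0.70, edgeR adjusted p = 0.0134) and Mterf4 (-0.41, edgeR adjusted p = 0.0241), the partner of Nsun4.

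Of 28 other RNA methyltransferase genes and cofactors, 27 were tested. In Tet1, 2 were called higher and 0 lower, in Tet2 7 and 4, and in Tet2ΔRBD 4 and 4. Of all genes, 2.72% and 3.18% were called higher and lower in Tet1, 14.6% and 18.5% in Tet2, and 7.4% and 12.1% in Tet2ΔRBD. Trmt10b (listed as Rg9mtd3), a tRNA guanosine methyltransferase, was higher in all 3 lines by 1.42, 1.17 and 1.09 (edgeR adjusted p = 0.0419, 0.00527 and 0.0145), and Wdr4, the partner subunit of Mettl1, was higher in Tet2 by 0.53 and in Tet2ΔRBD by 0.36 (edgeR adjusted p = 0.00545 and 0.0459). Lower in Tet2 were Dimt1, which dimethylates small-subunit rRNA, at -0.69, the mitochondrial tRNA enzyme Trmt61b at -0.72, the cofactor Trmt112 at -0.71 and the ribosome biogenesis enzyme Emg1 at -0.57 (edgeR adjusted p = 0.00275, 0.00369, 0.00640 and 0.00987). All but Trmt112 were also called lower in Tet2ΔRBD, and none of the 4 in Tet1. The list's median fitted log2 ratio was 0.18, 0.21 and 0.12 in Tet1, Tet2 and Tet2ΔRBD, and that of the partners -0.11, -0.13 and -0.21.

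The transcripts of the 8 genes differ in the pyrimidine-rich sequence that the study examined. The letters TCTCTC, searched on the transcript strand only with overlapping matches counted, occur in 57.8% of 13075 transcripts of genes tested. They were absent from Nop2, Nsun2 and Ybx1 and occurred 1 time in Nsun5, 2 times each in Nsun3, Nsun6 and Trdmt1 and 3 times in Nsun4. The longest run of T and C alone was 9 bases in Nsun2 and Ybx1, which had the highest and the lowest mean ratio of the members, and 14 bases in Trdmt1, against a median of 13 over all transcripts. In Nsun2 that run is TTCTCTTCT in the coding region, and in Trdmt1 it is TCTCCTTCTTCTCT, also coding. This describes the annotated spliced transcript, not a site, and introns were not searched.

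Likeness was taken as Pearson's r of log2(IP/input) over the 10 pairs, among 8467 genes with a mean input of at least 5 TPM. For Nsun2 the closest were Lars (r = 0.993), a leucyl-tRNA synthetase, Polr2b (r = 0.987), a subunit of RNA polymerase II, and Polr3c (r = 0.981), a subunit of RNA polymerase III. For Ybx1 they included Bzw1 (r = 0.989) and Pfdn4 (r = 0.985), a subunit of the prefoldin chaperone. Among the members, Nsun6 and Ybx1 had the highest r, 0.938, and Nsun5 and Ybx1 the lowest, -0.929. The 10 points share lines and library sets, and replicate 2 of the Tet2 lines lies at 1 end of each, so these values describe that spread.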

How the data were processed

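RIP-Seq and input RNA of 3 tagged mouse ESC lines (20 libraries) were used. According to the methods, the authors removed rRNA and tRNA reads with Bowtie2, trimmed with Trimmomatic and quantified RefSeq transcripts (mm9) with RSEM. They deposited expected counts per gene, TPM with a pseudocount of 1 already added (treated here as a score from which 1 was subtracted to give TPM), and FPKM, which was not used. Groups came from the sample labels, and IP and input of the same line and replicate number formed a pair. Deviations of same-numbered IP and input libraries from their group means had correlations from 0.184 to 0.862, the lowest in Tet1, where only 2 pairs exist.

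Expected counts were rounded and fitted with edgeR 4.0.16 in R 4.3.3 (TMM, at least 1 CPM in at least 2 libraries, quasi-likelihood test, 1 block per pair, IP effect per line, all 20 libraries), and the 10 inputs separately by line, over 13710 and 13310 genes. Standard errors are the log2 ratio divided by the square root of F. Intervals use the fit's total degrees of freedom, residual plus prior. As alternatives the tests were repeated in DESeq2 1.42.0, in limma 3.58.1 (TPM plus 1 or plus 0.1, on the log2 scale), without the filter, without the block, and with replicates merged or left out. Leaving out both replicates 2 and using library set 3 alone were chosen after the data had been seen. The members, the 2 gene lists and the marker lists were chosen with earlier results of these data known. All 8 members are named, and from each list at most 6 genes past the threshold, by smallest adjusted p. Transcript sequences came from the mm9 genome with GENCODE annotation. Symbols were those of the files. Depth was 21078995 to 37576638 counts a library, and without molecular tags PCR copies cannot be told from separate molecules. For likeness the 3 genes of highest r were taken for the members of highest and lowest mean ratio, and 1 of them is not reported here.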

Additional observations from a re-analysis of the deposited data

Results flagged for a closer look

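Of 48 groups of 4 values (input TPM, IP TPM and log2(IP/input) of 8 genes in Tet2 and Tet2ΔRBD), 12 held a value whose gap to its nearest neighbour took most of the group's range, where chance gives about 1 in 20 groups of independent values. These values are not independent, because replicates 3 and 4 were close, each ratio comes from the same input and IP, and all genes share the libraries. The 12 therefore cannot be read as an excess over that rate. Replicate 2 was that value in 9 of them and replicate 1 in 3. Nop2 replicate 2 was the highest in Tet2 input (154.2 TPM, others 49.77 to 64.28), Tet2 IP (322.7 TPM, others 58.89 to 75.39) and the Tet2 log2 ratio (1.06, others 0.23 to 0.27). It was also the highest in Tet2ΔRBD input (179.5 TPM, others 69.68 to 83.51) and IP (184.7 TPM, others 95.28 to 96.17). The log2 ratio of Nsun2 was highest in replicate 2 of Tet2 (2.07, others 0.65 to 0.86) and of Tet2ΔRBD (2.20, others 0.68 to 0.79), and its Tet2 input was highest in replicate 1 (117.6 TPM, others 65.21 to 73.18). The Ybx1 log2 ratio in Tet2 was 0.26 in replicate 2, with the others between -1.15 and -1.07, and its Tet2ΔRBD IP was highest in replicate 1 (781.2 TPM, others 485.7 to 509). In Tet2 IP, Nsun3 was highest in replicate 2 (1.42 TPM, others 0.96 to 1.02), and in Tet2ΔRBD IP, Nsun5 was lowest in replicate 1 (21.67 TPM, others 37.3 to 40.31). The part of the library sets in these values was not tested.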

How the results depend on the processing

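Counts of members passing the threshold were small and moved with the fit, as did the share of all genes that passed. In Tet1 (0 as reported) they were 4 with the compared line alone, whose 2 pairs leave little to estimate the spread, 2 without both replicates 2 and 3 in library set 3, where 55.0%, 20.9% and 46.8% of all genes passed. In Tet2 (1 as reported) they were 2 in DESeq2, without the filter, with the compared line alone, without both replicates 2, in library set 3 and in limma on log2(TPM + 0.1), 3 in limma on log2(TPM + 1), and 0 with no replicate block or with replicates 3 and 4 merged. Of all genes 35.9% passed in DESeq2, 21.1% without the filter, 29.0% with the compared line alone, 38.3% without both replicates 2, 49.9% in library set 3, 43.3% and 43.1% in limma (pseudocounts 0.1 and 1), 2.74% with no replicate block and 23.4% with replicates merged. In Tet2ΔRBD (0 as reported) they were 2 in DESeq2 and in both limma fits, 3 without both replicates 2 and 4 in library set 3, where 23.9%, 29.2% and 28.1%, 30.8% and 49.1% of all genes passed. Leaving out 1 pair at a time gave 0 to 2 in Tet2 and 0 to 2 in Tet2ΔRBD, with 19.8% to 39.4% and 5.82% to 25.0% of all genes. Nsun2 in Tet2 passed without Tet2ΔRBD replicate 2 (edgeR adjusted p = 0.00817), and Ybx1 in Tet2ΔRBD without that same pair (-1.23, edgeR adjusted p = 0.00656). For Tet1 against Tet2 and against Tet2ΔRBD, library set 3 gave 1 and 1 (2.35% and 21.0% of all genes), and replicates 3 and 4 of the inputs gave 5 and 6 (49.8% and 44.4%), all against 0. Asking for an IP at least 1.5 times the input left 1 member above it in each line, where 9.13%, 5.92% and 1.29% of all genes were in Tet1, Tet2 and Tet2ΔRBD. Centring on the pair median left 1 in Tet2 (25.6% of all genes), and group means without the pairing (no replicate block) gave 5 in Tet2ΔRBD (72.2% of all genes).

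Of 32 fitted ratios under their alternatives (608 values), 512 kept their direction and their side of the threshold, 36 passed it in addition, 7 no longer passed, and 53 changed sign, in 14 ratios. Some of these lay near 0, such as Nop2 in Tet1 (-0.02). Others lay further off, such as Ybx1 for Tet2 minus Tet2ΔRBD (-0.26). The cause of the changes was not tested. For Nop2 in Tet1 the ratio turned to 0.12 and 0.13 in limma (pseudocounts 1 and 0.1) and 0.0091 with the compared line alone, and leaving out 1 pair gave -0.053 to 0.0056. Nop2 in Tet2 was -0.011 without both replicates 2, and -0.0093 to 0.28 without 1 pair. Nop2 in Tet2ΔRBD was -0.013 with no replicate block and -0.041 with replicates 3 and 4 merged, and -0.055 to 0.085 without 1 pair. Nsun3 in Tet1 was 0.033 and 0.052 in limma. Nsun4 in Tet2 was -0.021 with no replicate block, -0.0034 with replicates merged, and -0.065 to 0.18 without 1 pair. Nsun5 was 0.27 and 0.27 in Tet2 and 0.12 and 0.12 in Tet2ΔRBD in limma, 0.18 and 0.10 in library set 3, and in Tet2 0.10 without both replicates 2 and -0.14 to 0.10 without 1 pair. Trdmt1 was 0.12 and 0.16 in Tet2 and 0.19 and 0.28 in Tet2ΔRBD in limma, and in Tet2ΔRBD 0.046 in DESeq2, 0.012 without the filter, 0.082 with replicates merged and -0.36 to 0.20 without 1 pair. For Tet2 minus Tet2ΔRBD, leaving out both replicates 2 gave -0.062 for Nop2, 0.084 for Nsun2 and 0.094 for Trdmt1, and library set 3 gave -0.12 for Nop2, 0.023 for Nsun2, 0.077 for Nsun6, 0.066 for Trdmt1 and 0.051 for Ybx1. With no replicate block Nsun2 was 0.11. Without 1 pair these differences ran from -0.023 to 0.23 for Nop2, -0.32 to 0.37 for Nsun2, -0.28 to 0.10 for Nsun6, -0.35 to 0.24 for Trdmt1 and -0.55 to 0.18 for Ybx1. No sign changed for the fitted ratios of Nsun2, Nsun6 and Ybx1 against input in any line. Depth limits mainly Nsun3, with 15 to 45 expected counts a library.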
